A study of Mus musculus with 13 samples.

Results

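The comparison described here is the difference between keratinocytes of mice that carry K14Cre on floxed Il12rb2 alleles and keratinocytes of mice with the floxed alleles alone, taken over untreated and Aldara-treated skin together. Its members were chosen by genotype label: 7 K14Cre/+ Il12rb2fl/fl libraries were set against 6 Il12rb2fl/fl libraries, which are all 13 of the 13 libraries. The study used RNA sequencing of keratinocytes of the interfollicular epidermis, the skin surface between hair follicles, sorted by flow cytometry from the skin of C57/BL6 mice. Aldara is a cream with 5% imiquimod, an agonist of Toll-like receptor signalling that is used to induce psoriasis-like skin inflammation, and it was on the skin for 1 day. Untreated skin gave 3 Il12rb2fl/fl and 4 K14Cre/+ Il12rb2fl/fl libraries, and Aldara-treated skin gave 3 of each genotype. Both genotypes carry the floxed alleles, so the groups differ by the Cre transgene, which the keratin 14 promoter drives in basal keratinocytes and their descendants. In the text below, "floxed" means Il12rb2fl/fl and "Cre" means K14Cre/+ Il12rb2fl/fl. A group with Cre and no floxed allele was not analysed here, so effects of Cre and of the deletion cannot be told apart. The labels do not say whether replicates are separate animals, their age, or their litter, and p-values therefore speak of the spread among these libraries, part of which could be technical.

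Il12rb2 encodes the signalling chain of the interleukin-12 receptor, which pairs with the chain encoded by Il12rb1. Interleukin-12 bound to this pair activates the Janus kinases TYK2 and JAK2 and the transcription factor STAT4, and in T and natural killer cells this drives interferon-gamma production. The Il12rb1 chain also serves interleukin-23, the cytokine that sustains interleukin-17 and interleukin-22 production, known as type 3 immunity. Keratinocytes answer those cytokines with neutrophil-attracting chemokines, antimicrobial proteins and stress keratins, and they carry interleukin-12 receptor chains in mouse skin. The title of the series names this question: whether interleukin-12 acts on type 3 inflammation through interfollicular keratinocytes.

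Total counts per library ranged from 5830034 to 22232478, and 16051 of the 25746 genes in the count table had enough counts to be tested. Levels are given as CPM, counts scaled to a common library size with edgeR's TMM factors. The sorted cells carried the defining keratins: Krt5, a keratin of basal keratinocytes, ranged from 2765 to 17087 CPM, and its partner Krt14 from 6422 to 32629 CPM. Of the markers of other cells, the T cell gene Cd3e reached at most 1.17 CPM and the neutrophil gene Ly6g at most 0.32 CPM in any library. Others were present: the collagen gene Col3a1 of fibroblasts reached 509 CPM, Cd74 of antigen-presenting cells 455 CPM, Krt8 439 CPM, the melanocyte gene Dct 114 CPM and the T cell receptor gene Trbc2 28.1 CPM in some library. Some hair follicle markers reached higher levels, with Krt79 at up to 3144 CPM, Plet1 719 CPM and Sox9 531 CPM, while Shh of the same list reached 0.213 CPM. One Cre Aldara library, replicate 1, stood apart with the lowest median Spearman correlation to the other libraries, 0.847. The predicted gene Gm10800 took over 5% of counts in 3 untreated libraries, namely floxed replicate 2 and Cre replicates 1 and 2, and up to 14.2% in the first of these. Values without those libraries are given for some results only, and other values also differed without them.

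Il12rb2 itself, the floxed gene, was lower in Cre keratinocytes. It lies on chromosome 6 from 67291318 to 67376188 on the minus strand of GRCm38. In untreated skin its level was 17.1, 78.8 and 52.7 CPM in the floxed libraries and 22.7, 8.52, 25.6 and 19.0 CPM in the Cre libraries. After Aldara, Il12rb2 was 1.98, 8.14 and 2.68 CPM in the floxed libraries and 0, 1.07 and 1.64 CPM in the Cre libraries. The genotypes overlapped in untreated skin, where floxed replicate 1 lay below 3 of the 4 Cre libraries, and did not overlap after Aldara. The mean difference over treatments was -1.83 in log2 CPM, and an exact two-sided permutation test within treatment gave p = 0.0143 over 700 arrangements. Within untreated skin the difference was -1.23 (exact permutation p = 0.2), and within Aldara-treated skin it was -2.42 (exact permutation p = 0.1, the smallest that 3 against 3 allows). Across all genes, edgeR's quasi-likelihood test gave -1.70 with a 95% interval of -2.81 to -0.58 and an adjusted p of 0.949. Without the 3 libraries over 5% Gm10800 the difference was -1.43, with an exact permutation p of 0.117. Without the 7 libraries over 1%, which leaves both genotypes in untreated skin only, it was -0.39 (exact permutation p = 1 for 2 against 2, where 0.333 is the smallest possible). A count of 0, as in Cre Aldara replicate 1, allows up to 0.307 CPM at 3 counts, for counting error only. Cre libraries kept Il12rb2 reads in 6 of 7 cases, and a count per gene includes reads from exons outside a deleted segment. The floxed exons and the share of sorted cells that kept the gene were not given in the sources used here.

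**Figure D1:**
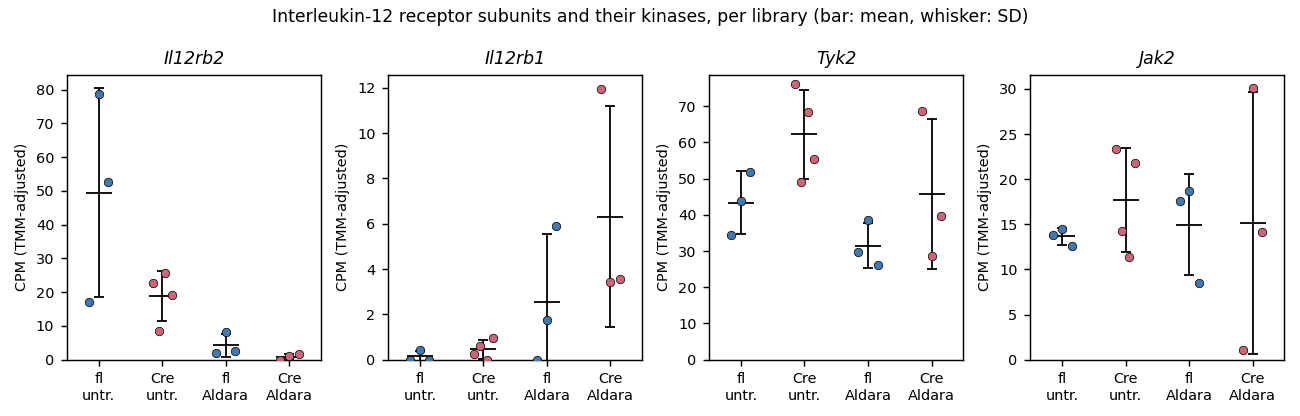
Level in CPM (vertical axis, from 0) of Il12rb2, Il12rb1, Tyk2 and Jak2 in each of the 13 libraries, by genotype and treatment (fl, Il12rb2fl/fl; Cre, K14Cre/+ Il12rb2fl/fl). Points are libraries, bars the group mean and whiskers the SD. Il12rb2 is below 10 CPM in all Aldara libraries, and its floxed untreated libraries spread from 17.1 to 78.8 CPM.

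The Il12rb2 level also fell with Aldara, by 3.94 on the log2 scale in the same model (edgeR adjusted p = 0.000189). Its receptor partner Il12rb1 had 0 counts in 3 of the 6 floxed and 1 of the 7 Cre libraries. After Aldara it reached 0, 1.74 and 5.89 CPM in floxed and 11.97, 3.43 and 3.56 CPM in Cre libraries, and the groups overlapped. Its genotype term was 1.52 (SE 1.16). STAT4, the transcription factor of this receptor in lymphocytes, had its gene Stat4 at 3.03 CPM or less in each library, with a genotype term of -0.13 (SE 1.30).

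The kinases were expressed at moderate levels. Tyk2 was at 34.5, 43.7 and 51.8 CPM in floxed and 76.2, 49.1, 68.4 and 55.5 CPM in Cre untreated libraries. After Aldara, Tyk2 was at 29.8, 38.5 and 26.2 CPM in floxed and 68.7, 28.8 and 39.7 CPM in Cre libraries. The Cre libraries tended higher but overlapped the floxed ones in each treatment, with a genotype term of 0.53 (SE 0.21, unadjusted p = 0.0210). Jak2 had a term of 0.21 (SE 0.47), and its value in Cre Aldara replicate 1, 1.13 CPM, was the lowest of the 13. Of the 20 genes of the list of interleukin-12 and interleukin-23 cytokines, receptor chains and JAK-STAT genes, 16 were tested, 9 stood above 0 and 7 below, and 0 passed the adjusted threshold. Their median was 0.14, beside -0.04 for all genes tested. The cytokine genes Il12a and Il12b and the receptor gene Il23r did not have enough counts to be tested.

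Over all genes, no difference between the genotypes passed the test. With edgeR's quasi-likelihood test and treatment as a covariate, 0 of 16051 genes (0%) had an adjusted p under 0.05, and the smallest adjusted p was 0.949. At an unadjusted p under 0.05 there were 841 genes, 475 higher in Cre (2.96% of those tested) and 366 lower (2.28%). Together these are close to the share of 0.05 that chance alone would give. DESeq2 called 9 genes, limma voom 0, and voom with quality weights 1. The DESeq2 p-values were adjusted over only the 803 genes that its own filter kept. Without that filter DESeq2 called 6 genes, and of the 9 only Hspb1 and Ier3 were among them. DESeq2 adjusted p-values of the genotype term printed below for single genes are those with the filter. In the same edgeR model Aldara changed 4063 genes (25.3%), 2156 up and 1907 down. Adding treatment to the fit lowered the residual variation of a gene's log2 CPM by a median 18.1% of its total, and adding genotype by a further 3.62%. These shares were not corrected for chance. With 13 libraries a label without any effect also takes a share, so 3.62% is no measure of a genotype effect.

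The size of difference that these data leave possible depended on the level of the gene. The 95% interval of the genotype term lay within 2-fold in either direction for 7856 genes (48.9%). Where the average log2 CPM was 3 or more (10104 genes), it did so for 7732 (76.5%). The remaining genes are those for which a change beyond 2-fold is inside the interval.

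None of the genes of smallest p that stood higher in Cre keratinocytes passed the adjusted test. Each of the 20 genes named in this and the following paragraphs as having the smallest p had an edgeR adjusted p of 0.949. Tgfa, which encodes transforming growth factor alpha, a ligand of the epidermal growth factor receptor made by keratinocytes, lies on chromosome 6 from 86195223 to 86275719. In untreated skin it was at 13.8, 15.6 and 15.6 CPM in floxed and 47.7, 29.1, 32.5 and 53.2 CPM in Cre libraries. After Aldara, Tgfa was at 32.7, 30.0 and 28.2 CPM in floxed and 87.0, 35.4 and 50.4 CPM in Cre libraries. Every Cre library lay above every floxed library of its treatment. The genotype term of Tgfa was 1.20 on the log2 scale (SE 0.23, unadjusted p = 8.5e-05), the smallest unadjusted p among the higher genes at this level.

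Hspb1 encodes the small heat shock protein HSP27, which is abundant in differentiating keratinocytes. It was at 364, 419 and 486 CPM in floxed and 629, 491, 559 and 583 CPM in Cre untreated libraries. After Aldara, Hspb1 was at 167, 173 and 171 CPM in floxed and 349, 358 and 357 CPM in Cre libraries. The genotypes did not overlap in either treatment, and the Aldara libraries of each genotype lay close together. The Hspb1 term was 0.71 (SE 0.15), with 0.42 in untreated and 1.06 in Aldara-treated skin and an unadjusted interaction p of 0.027. DESeq2 gave Hspb1 an adjusted p of 0.00128.

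Ier3, an immediate-early gene that protects cells from apoptosis, was at 341, 420 and 343 CPM in floxed and 657, 589, 808 and 1049 CPM in Cre untreated libraries. After Aldara, Ier3 was at 164, 227 and 329 CPM in floxed and 327, 352 and 440 CPM in Cre libraries. The genotypes were apart in untreated skin and met at 1 library each after Aldara, and the Ier3 term was 0.87 (SE 0.20, DESeq2 adjusted p = 0.00459). Krt16, a keratin induced in wounded and psoriatic epidermis, was at 124, 101 and 195 CPM in floxed and 938, 389, 1277 and 2404 CPM in Cre untreated libraries. After Aldara, Krt16 was at 38.6, 258 and 111 CPM in floxed and 127, 446 and 631 CPM in Cre libraries. The untreated libraries were apart and the Aldara libraries overlapped, with a Krt16 term of 2.40 (SE 0.54, DESeq2 adjusted p = 0.00755).

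Atf4, the transcription factor of the integrated stress response, was at 166 to 195 CPM in floxed and 192 to 452 CPM in Cre untreated libraries. After Aldara, Atf4 was at 122 to 196 CPM in floxed and 233 to 320 CPM in Cre libraries. Its term was 0.75 (SE 0.19, DESeq2 adjusted p = 0.0181). Gadd45a, a growth arrest gene induced by DNA damage and other stress, was apart in untreated skin, at 20.8 to 35.1 CPM in floxed and 54.9 to 130 CPM in Cre libraries. Its Aldara libraries overlapped, and its term was 1.14 (SE 0.31). The other higher genes of smallest p were Tmem154 at 0.97, Akirin1 at 0.79, Tmem43 at 0.54 and Zpr1 at 0.52.

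Among the genes of smallest p that stood lower in Cre keratinocytes, Pctp had the greatest difference. It encodes phosphatidylcholine transfer protein, which moves phospholipid between membranes, and lies on chromosome 11 from 89982665 to 90002894. In untreated skin it was at 22.8, 9.06 and 3.92 CPM in floxed and 1.63, 2.18, 0 and 0 CPM in Cre libraries. After Aldara, Pctp was at 157, 157 and 92.1 CPM in floxed and 32.9, 33.9 and 31.7 CPM in Cre libraries. Every Cre library lay below every floxed library of its treatment. Pctp also rose with Aldara, by 4.34 on the log2 scale (edgeR adjusted p = 0.000146). Its genotype term was -2.86 (SE 0.60), and limma voom with quality weights gave it an adjusted p of 0.0201.

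Luc7l3, a splicing factor gene, was at 172 to 259 CPM in floxed and 73.8 to 117 CPM in Cre untreated libraries, and overlapped after Aldara, with a term of -0.84 (SE 0.20). Gigyf1, which encodes a protein that represses translation, was lower in every Cre library than in every floxed library of its treatment, with a term of -1.11 (SE 0.27). Ramp1, a subunit of the receptor for the neuropeptide CGRP, was at 28.3, 29.2 and 20.6 CPM in floxed and 6.96, 8.92 and 8.82 CPM in Cre Aldara libraries. Its untreated libraries were at 12.5, 7.89 and 6.36 CPM in floxed and 5.57, 6.14, 1.24 and 3.33 CPM in Cre, so the genotypes were apart in both treatments. The Ramp1 term was -1.39 (SE 0.36).

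Bhlhe41, a repressor of the circadian clock, had a term of -1.61 (SE 0.40), with values of 35.8 to 107 CPM in floxed and 5.77 to 24.3 CPM in Cre untreated libraries. After Aldara, Bhlhe41 was at 41.5 to 117 CPM in floxed and 16.8 to 54.8 CPM in Cre libraries, which overlapped. Enpp2, which encodes autotaxin, the enzyme that makes lysophosphatidic acid, was at 37.7 to 60.5 CPM in floxed and 10.3 to 24.0 CPM in Cre untreated libraries, with a term of -1.16 (SE 0.31). After Aldara, Enpp2 was at 18.3 to 29.9 CPM in floxed and 11.6 to 26.6 CPM in Cre libraries, which overlapped. Enpp2 differed by -1.73 in untreated skin and by -0.49 after Aldara, and edgeR's quasi-likelihood test of the interaction gave an unadjusted p of 0.0369 and an adjusted p of 1.00. Acss2, which makes acetyl-CoA from acetate, had a term of -0.86 (SE 0.23). The chromatin genes Kmt2b, a histone methyltransferase, and Phf12, a corepressor subunit, had terms of -1.04 and -0.94. Dct, a pigment enzyme of melanocytes, had a term of -2.03 (SE 0.53) and is taken up with the other cell types.

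**Figure D2:**
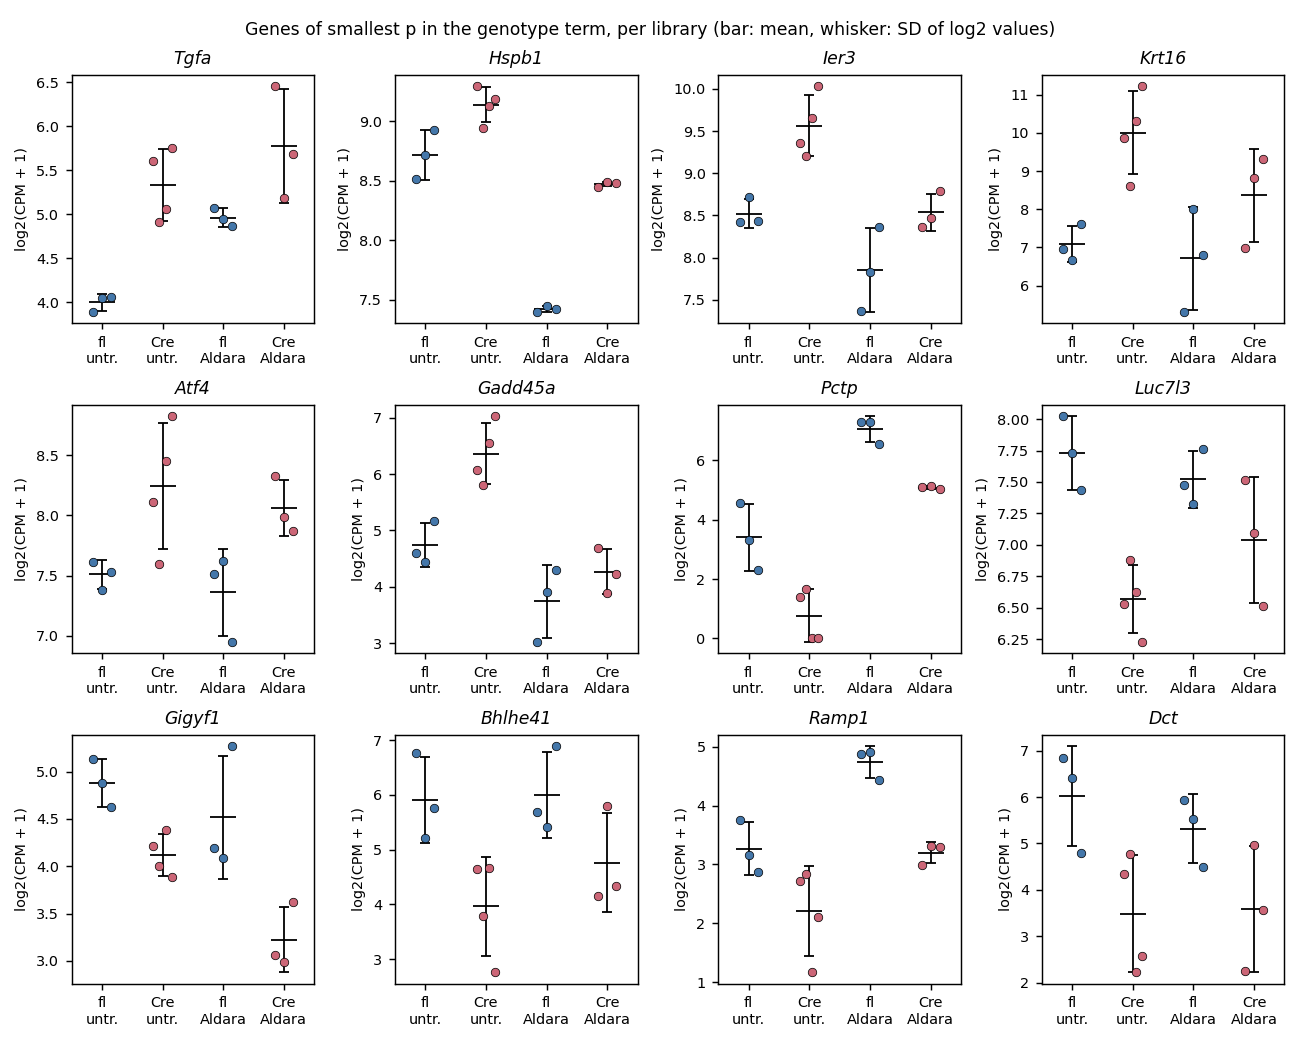
Level as log2(CPM + 1) (vertical axis, which does not start at 0) of 12 of the 20 genes of smallest p in the genotype term, in each of the 13 libraries by genotype and treatment. Points are libraries, bars the mean and whiskers the SD of the log2 values. Tgfa, Hspb1 and Pctp are apart between genotypes in both treatments, and Dct overlaps after Aldara.

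A gene was also counted where its CPM values did not overlap between genotypes within each treatment and lay on the same side in both. There were 35 such genes higher in Cre (0.218% of those tested) and 35 lower (0.218%). Within 1 treatment alone, 968 of the 16051 genes tested did not overlap in untreated skin and 1459 in Aldara-treated skin. With 3 or 4 libraries per group many genes lie apart without any difference, so being apart in 1 treatment is a description. Tgfa, Hspb1 and Zpr1 were among the higher genes. Another of those with the widest gaps was Hspa8, the constitutive heat shock protein 70 family member, at 738 to 1179 CPM in floxed and 1314 to 1726 CPM in Cre untreated libraries. After Aldara, Hspa8 was at 1571 to 1888 CPM in floxed and 2120 to 2200 CPM in Cre libraries, with a term of 0.45 (SE 0.16).

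Map2k1, the kinase MEK1 of the growth factor pathway, was at 54.7 to 74.5 CPM in floxed and 79.5 to 102 CPM in Cre untreated libraries. After Aldara, Map2k1 was at 100 to 133 CPM in floxed and 138 to 159 CPM in Cre libraries, with a Map2k1 term of 0.34 (SE 0.14). Nppb, which encodes a natriuretic peptide precursor, was at 0.32 to 1.94 CPM in floxed and 6.26 to 107 CPM in Cre untreated libraries. After Aldara Nppb was at 1.09, 10.3 and 18.4 CPM in floxed and 24.7, 25.1 and 33.0 CPM in Cre libraries, so its values spread widely within genotypes yet did not overlap between them. Its term was 3.27 (SE 0.91). Others in the same direction were Rpsa (0.59), a ribosomal protein gene, Atp1b1 (0.57), a sodium pump subunit, Neo1 (0.66), the receptor neogenin, Aqr (0.45), a splicing helicase, and Ssr1 (0.24).

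On the lower side, Arid4a, a chromatin gene, showed small gaps with little spread. It was at 67.6, 68.4 and 68.0 CPM in floxed and 55.8, 65.7, 59.4 and 55.2 CPM in Cre untreated libraries. After Aldara, Arid4a was at 57.2, 56.7 and 59.1 CPM in floxed and 38.3, 41.8 and 44.0 CPM in Cre libraries, with a term of -0.33 (SE 0.13). Wnt10b, a Wnt ligand, was at 4.19 CPM or less in each library, with a term of -1.90 (SE 0.87). Akap8l (-0.33), Cryl1 (-0.68), Ptprn2 (-2.63) and Pla2g4b (-1.85) lay on the same side. Of these, Ptprn2 and Pla2g4b were at 5.62 CPM or less in each library.

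The genotype differences of the 2 treatments were then set side by side, and these use no library in common. Across the 16051 genes, Pearson's r between the untreated and the Aldara difference was 0.057 and Spearman's rho 0.095. The sign was the same for 54.9% of genes. Genes are not independent replicates, so these values are a description. No gene passed within untreated skin alone or within Aldara-treated skin alone (edgeR). There 599 and 690 of the 16051 genes had an unadjusted p under 0.05. Each is a smaller share than the 0.05 that chance alone would give.

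**Figure D3:**
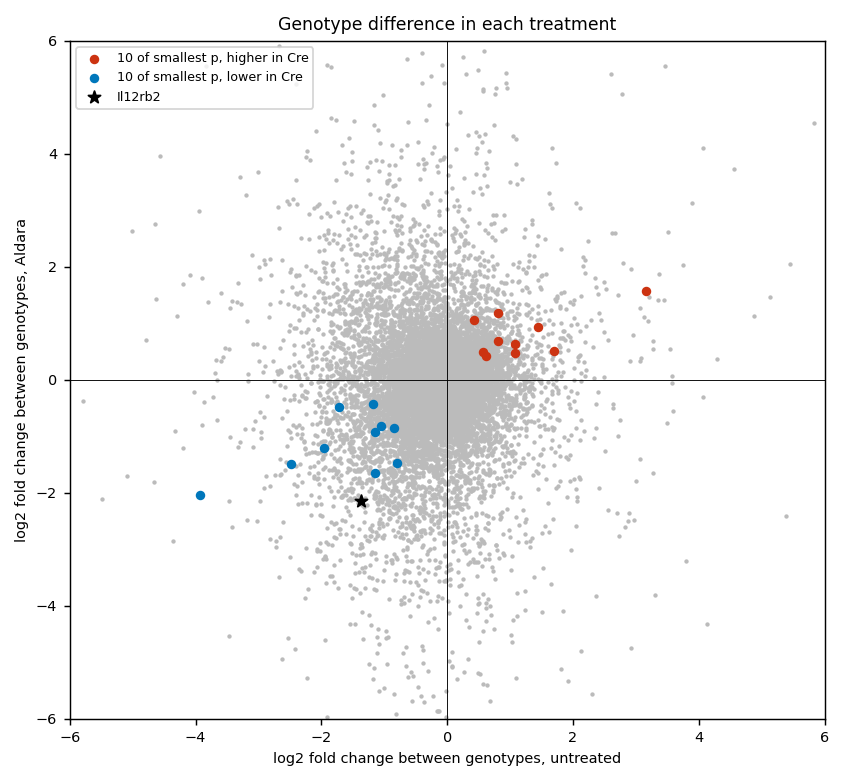
Genotype difference (log2 fold change, Cre minus floxed) in untreated skin (horizontal axis) against the same in Aldara-treated skin (vertical axis), 1 grey point per gene, with 65 genes beyond the axis limit of 6 not shown. Red and blue points are the genes of smallest p in the shared genotype term, which the shared term places in the same quadrant, and the star is Il12rb2. The grey cloud shows little common direction, with r of 0.057.

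The test of whether the genotype difference itself differed between treatments, the interaction, also passed for 0 of 16051 genes (0%) with edgeR, with 539 genes (3.36%) at an unadjusted p under 0.05. DESeq2 called 6. The gene of smallest p at a sufficient level was Ccdc80, which encodes an extracellular matrix protein. In untreated skin Ccdc80 was at 18.7, 19.6 and 71.9 CPM in floxed and 91.0, 56.2, 37.1 and 47.8 CPM in Cre libraries. After Aldara, Ccdc80 was at 5.11, 4.07 and 5.45 CPM in floxed and 0.614, 0.0714 and 0.342 CPM in Cre libraries. The genotypes overlapped in untreated skin and lay apart after Aldara, with an unadjusted interaction p of 7.8e-05 and a DESeq2 adjusted p of 0.000251. Ccdc80 is also expressed by fibroblasts, and the summed level of fibroblast markers after Aldara was 205 to 425 CPM in floxed and 155 to 283 CPM in Cre libraries, with overlap. The median of the fibroblast list was 0.30 in untreated skin and -0.88 after Aldara. Its members Lum and Fn1 were apart after Aldara, at 1.98 to 11.04 and 1.85 to 5.58 CPM in floxed and at 0.102 to 0.958 and 0.102 to 1.30 CPM in Cre libraries. Their differences were -0.28 and 0.06 in untreated skin and -2.99 and -2.09 after Aldara. Col5a1, the list member of smallest p in the genotype term, went the other way after Aldara. It differed by 0.92 in untreated skin and by 2.66 after Aldara. The part of fibroblast transcripts in the result was not tested. Slc2a6, a glucose transporter gene, Tnip3, an inhibitor of NF-kB signalling, and Asap1, an ARF regulator, differed by 0.68, 1.31 and 0.52 in untreated skin and by -4.004, -2.85 and -1.02 after Aldara. Slc2a6 and Tnip3 overlapped in untreated skin and were apart after Aldara. Asap1 was apart in untreated skin, at 48.5 to 60.98 CPM in floxed and 68.1 to 85.7 CPM in Cre libraries, and overlapped after Aldara, at 17.2 to 41.9 and 12.4 to 17.9 CPM.

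Gene lists give a wider view of the same term, with the median of each list set beside -0.04 for all genes. The list with the highest median, 0.93, held keratinocyte genes known to be induced by interleukin-17 and interleukin-22. Of its 26 genes 16 were tested, 12 stood above 0 and 4 below, 0 passed, and 7 had an unadjusted p under 0.05 and stood higher, beside 2.96% of all genes tested. Those 7 were the neutrophil-attracting chemokines Cxcl1 and Cxcl2, the calprotectin subunits S100a8 and S100a9, Sprr2d, Sprr2h and the AP-1 factor Fosl1. The list was named with the type 3 theme of the study known, and its count is a description.

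S100a8, an antimicrobial protein gene, was at 2.58, 0 and 0.541 CPM in floxed and 0.600, 0.792, 0.544 and 12.2 CPM in Cre untreated libraries. After Aldara, S100a8 was at 16.2, 29.2 and 13.9 CPM in floxed and 141, 47.3 and 106 CPM in Cre libraries. The untreated groups overlapped and 1 Cre library set their difference, while the Aldara groups were apart, and the S100a8 term was 2.08 (SE 0.72). Neutrophils also make S100a8. A sum over the 16 neutrophil and mast cell markers was 31.0 to 49.7 CPM in floxed Aldara libraries. It was 57.8 to 159 CPM in Cre Aldara libraries. S100a8 itself is in that sum and made up most of it in the Cre libraries. The sum is therefore no separate measure of neutrophils. The defining neutrophil genes Ly6g, Csf3r and Retnlg were at most at 0.32, 0.792 and 0.533 CPM in any library. Cxcr2, a chemokine receptor gene of neutrophils, was at 0.192 to 2.24 CPM in floxed and 3.00 to 9.31 CPM in Cre Aldara libraries, which were apart in the same direction as S100a8. Other neutrophil genes of the list went both ways. Camp reached 4.02 CPM in floxed and 0.137 CPM in Cre Aldara libraries, and Csf3r 0.116 and 0.511 CPM. Both overlapped at 0. The 5 tested members of the list had a median of -1.64 after Aldara. They were the neutrophil genes S100a8 and Cxcr2 and the mast cell genes Cpa3, Cma1 and Kit. Kit itself differed by -1.64 after Aldara, Cma1 by -5.61 and S100a8 by 2.31, so that median does not describe the neutrophil genes. The part of neutrophil transcripts in the difference was not tested.

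Cxcl1 was at 30.0, 47.8 and 25.97 CPM in floxed and 25.1, 59.0, 56.8 and 64.4 CPM in Cre untreated libraries. After Aldara, Cxcl1 was at 86.3, 67.6 and 56.8 CPM in floxed and 259, 78.1 and 150 CPM in Cre libraries. Both treatments overlapped, and the Cxcl1 term was 0.87 (SE 0.28). For Cxcl2 the Aldara difference rested on Cre replicate 1, at 54.4 CPM, while the other Cre Aldara libraries were at 1.28 and 1.71 CPM and the floxed ones at 2.36, 3.02 and 0.487 CPM. Leaving out 1 library at a time, the list's median ranged from 0.70 to 0.97, and the number of members at an unadjusted p under 0.05 that stood higher from 2 to 8. It was 2 without Cre untreated replicate 4, 3 without Cre Aldara replicate 3 and 4 without Cre Aldara replicate 2.

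Receptors for the same cytokines had a median of 0.08, with 9 of 13 above 0, 0 passing and Il1rap, the co-receptor of interleukin-1 and interleukin-36, highest at 0.56 (SE 0.23). Il17ra, the common interleukin-17 receptor chain, differed by 1.01 in untreated and -0.12 in Aldara-treated skin. Of 19 tested genes of the interleukin-1 family and epithelial cytokines, 12 stood above 0 with a median of 0.12, 0 passed and 4 had an unadjusted p under 0.05 and stood higher (2.96% of all genes): Cxcl16, Csf2, Tnf and Tslp. Tnf, the tumour necrosis factor gene, was at 7.59, 8.21 and 4.37 CPM in floxed and 16.5, 14.5, 33.5 and 44.1 CPM in Cre untreated libraries, which were apart. After Aldara Tnf was at 2.36, 7.90 and 0 CPM in floxed and 8.39, 4.50 and 8.55 CPM in Cre libraries, with overlap, and its term was 1.60 (SE 0.68).

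Stress keratins and wound genes had a median of 0.65. Of 21 tested members 17 stood above 0, 0 passed, and 7 had an unadjusted p under 0.05 and stood higher (2.96% of all genes). Beside Tgfa and Krt16 these were Mmp9, Sprr1b, Krt6a, Krt6b and Hbegf, another ligand of the epidermal growth factor receptor. Their terms were 2.17 for Sprr1b, 1.49 for Krt6a, 2.81 for Krt6b and 0.65 for Hbegf, and reads of the near-identical Krt6a and Krt6b can be split between them. Mmp9, a matrix protease gene, had 0 counts in 5 floxed libraries and 1 count in the other. The Cre libraries held 32, 0, 98 and 188 Mmp9 counts in untreated skin and 0, 512 and 0 after Aldara, so the genotypes overlapped at 0. The list's median was 1.16 in untreated skin and 0.23 after Aldara, and that difference was not tested. Its summed level was 2077 to 3123 CPM in floxed and 3868 to 8386 CPM in Cre untreated libraries, which were apart. After Aldara it was 1706.5 to 5196 CPM in floxed and 3254 to 4504 CPM in Cre libraries, which overlapped.

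NF-kB subunits, feedback inhibitors and targets had a median of 0.39, with 15 of 18 above 0, 0 passing and 5 at an unadjusted p under 0.05, all higher (2.96% of all genes): Tnip1, Nfkbib, Icam1, Rela and Tnfaip3. Icam1, an adhesion molecule that binds leukocytes, was at 131, 230 and 181 CPM in floxed and 390, 271, 439 and 597 CPM in Cre untreated libraries. After Aldara, Icam1 was at 59.2, 124 and 60.2 CPM in floxed and 122, 61.9 and 71.1 CPM in Cre libraries. Icam1 was apart between genotypes in untreated skin and overlapped after Aldara, with differences of 1.23 and 0.06. The list's count at an unadjusted p under 0.05 was 1 without floxed untreated replicate 1, without Cre untreated replicate 4 or without floxed Aldara replicate 1, 2 without floxed untreated replicate 2, and 3 without Cre untreated replicate 3 or without the libraries over 5% Gm10800.

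Genes induced by type I interferon, the antiviral programme that imiquimod can set off, all had a term below 0: 30 of 30, with a median of -0.52 and 0 at an unadjusted p under 0.05, beside 2.28% of all genes that stood lower at that limit. This rested on single libraries. Bst2, an antiviral membrane protein gene, was at 156, 9.38 and 7.80 CPM in floxed and 3.17, 38.8, 0.467 and 3.27 CPM in Cre untreated libraries. Floxed replicate 1 and Cre replicate 2 were the high libraries of their groups. Without floxed untreated replicate 1 the median turned to 0.21 and 19 of 30 members stood above 0. Without Cre untreated replicate 2 it was -1.48, with 12 members lower at an unadjusted p under 0.05. Without Cre untreated replicate 1, 3 or 4 it was -0.33 to -0.32, and without the libraries over 5% Gm10800 it was -1.34, with 5 members lower. Genes of interferon-gamma response and antigen presentation had a median of -0.12, with 14 of 30 above 0 and 0 passing. Ifngr2, a chain of the interferon-gamma receptor, had a term of -0.44 (SE 0.21).

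Genes of the keratinocyte layers had medians closer to that of all genes. Of 21 basal keratinocyte and hemidesmosome genes, 18 stood above 0 with a median of 0.22. The list's median was 0.52 in untreated skin and -0.10 after Aldara, and that difference was not tested. The interval of the shared term lay within 2-fold for 18 of them. Itgb4 and Itga3, integrins that anchor basal cells, had terms of 0.42 (SE 0.18) and 0.46 (SE 0.21), and Krt5 and Krt14 of 0.44 and 0.50. Krt14 was at 11523, 12587 and 21471 CPM in floxed and 31514, 23257, 20521 and 32629 CPM in Cre untreated libraries. After Aldara, Krt14 was at 7168, 12647 and 6422 CPM in floxed and 7346, 8891 and 12538 CPM in Cre libraries, so the genotypes overlapped in each treatment. Suprabasal and cornified envelope genes had a median of 0.16 with 13 of 22 above 0. Krt10, the main keratin of suprabasal cells, had a term of 0.34 (SE 0.35) and fell with Aldara by 4.15 (edgeR adjusted p = 1.1e-05). Ovol1, a transcription factor of differentiation, differed by 1.73 in untreated and 0.06 in Aldara-treated skin. DNA replication and mitosis genes had a median of 0.09, and the interval lay within 2-fold for 21 of 28.

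Transcripts of the mitochondrial genome stood lower in Cre keratinocytes. Of 12 tested, 11 were below 0, the median was -0.71, 0 passed with edgeR and 6 had an unadjusted p under 0.05, all lower (2.28% of all genes). DESeq2 called 3 of them, mt-Nd1, mt-Cytb and mt-Nd4, with its own filter and not without it. mt-Nd1, a subunit of respiratory complex I, was at 24885, 26928 and 25685 CPM in floxed and 12567, 23018, 18675 and 13246 CPM in Cre untreated libraries. After Aldara, mt-Nd1 was at 21908, 35774 and 13616 CPM in floxed and 12803, 10251 and 8468 CPM in Cre libraries. The mt-Nd1 values were apart in both treatments, with a term of -0.88 (SE 0.25, DESeq2 adjusted p = 0.0135). As a share of total counts, mitochondrial transcripts took 9.38 to 12.1% in floxed and 4.40 to 9.80% in Cre untreated libraries, and 7.17 to 15.9% in floxed and 3.67 to 7.08% in Cre Aldara libraries. In bulk samples a change in cell number or state and a change in RNA per cell cannot be told apart, and this share can also move with RNA quality, which was not tested.

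Cytosolic ribosomal protein genes went the other way. This list was added after its values were seen and is a description: 80 of 80 stood above 0, the median was 0.42, and 54 had an unadjusted p under 0.05, all higher (2.96% of all genes). Their share of counts was 2.46 to 4.06% in floxed and 2.89 to 5.07% in Cre untreated libraries, which overlapped. After Aldara it was 3.61 to 4.87% in floxed and 4.87 to 6.79% in Cre libraries. Ribosomal protein genes have many processed copies in the genome, and how the authors counted multi-mapping reads was not given in the sources used here. Leaving out 1 library at a time, the number at an unadjusted p under 0.05 ranged from 15 to 66, and it was 15 without floxed untreated replicate 2, 16 without Cre untreated replicate 4, 20 without Cre Aldara replicate 1 and 22 without floxed Aldara replicate 3. The median stayed between 0.35 and 0.50.

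**Figure D4:**
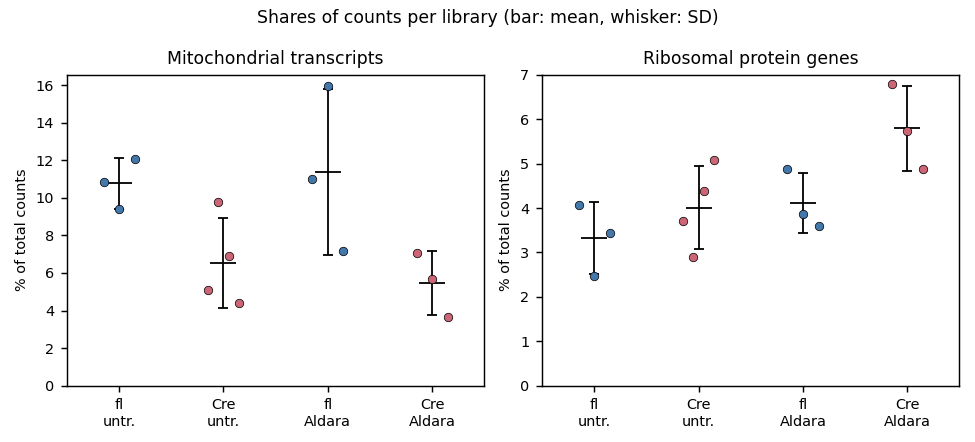
Share of total counts (percent, vertical axes from 0) taken by transcripts of the mitochondrial genome (left) and by cytosolic ribosomal protein genes (right), in each of the 13 libraries by genotype and treatment. Points are libraries, bars the mean and whiskers the SD. The Cre Aldara libraries are at 3.67 to 7.08% for mitochondrial transcripts, below the floxed Aldara libraries at 7.17 to 15.9%.

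Markers of other cells of the skin give the background against which these differences stand. Melanocyte and Merkel cell markers had the lowest median of the lists, -1.22, with 13 of 13 below 0, 0 passing and 3 at an unadjusted p under 0.05 (2.28% of all genes, lower): Dct, Pmel and Krt20. There were 5 such members without floxed untreated replicate 3. Without the libraries over 5% Gm10800 the list's median was -1.8. Dct was at 114, 83.6 and 26.9 CPM in floxed and 19.2, 26.5, 3.73 and 5.00 CPM in Cre untreated libraries. After Aldara, Dct was at 60.3, 45.1 and 21.7 CPM in floxed and 3.78, 30.1 and 10.8 CPM in Cre libraries, which overlapped. Pmel, a melanosome protein gene, had a term of -1.33 (SE 0.44). Krt20, a Merkel cell keratin, had no count in the 4 Cre untreated libraries and in 2 of the 3 floxed ones. The summed level of the list was 226 to 419 CPM in floxed and 44.3 to 929 CPM in Cre untreated libraries, and 145 to 597 CPM in floxed and 30.0 to 97.1 CPM in Cre Aldara libraries. The part of these cells in the differences above was not tested.

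Hair follicle markers had a median of -0.44, with 15 of 18 below 0, and sebaceous and lipid storage markers of -0.35, with 16 of 18 below 0. The summed level of the hair follicle list was 1741 to 3997 CPM in floxed and 1505 to 3321 CPM in Cre untreated libraries. After Aldara it was 3115 to 3908 CPM in floxed and 1860 to 3227 CPM in Cre libraries, and both treatments overlapped. The part of follicle cells in the differences was not tested. Plet1, a marker of the upper follicle, stood higher at 0.75 (SE 0.32), from 1.56 in untreated and -0.13 in Aldara-treated skin. Soat1, a sterol esterification enzyme, had a term of -1.005 (SE 0.38), and Scd3, a sebaceous desaturase, of -1.58 (SE 0.59). T cell markers had a median of -0.06 and a summed level of 30.8 to 60.9 CPM in floxed and 49.9 to 53.7 CPM in Cre untreated libraries. Langerhans cell and macrophage markers had a median of 0.04, and 9 of 16 were above 0. Without the libraries over 5% Gm10800 their median was -0.24. The 5 tested neutrophil and mast cell markers had a median of -0.80, with 2 above 0, and it was 0.17 without floxed Aldara replicate 3. Fibroblast markers had a median of -0.07, with Lum at -1.39 (SE 0.63) and Col5a1 at 1.69 (SE 0.75), and endothelial and mural markers of -0.17, with Egfl7 at -1.52 (SE 0.52). None of these genes passed the adjusted test.

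**Figure D5:**
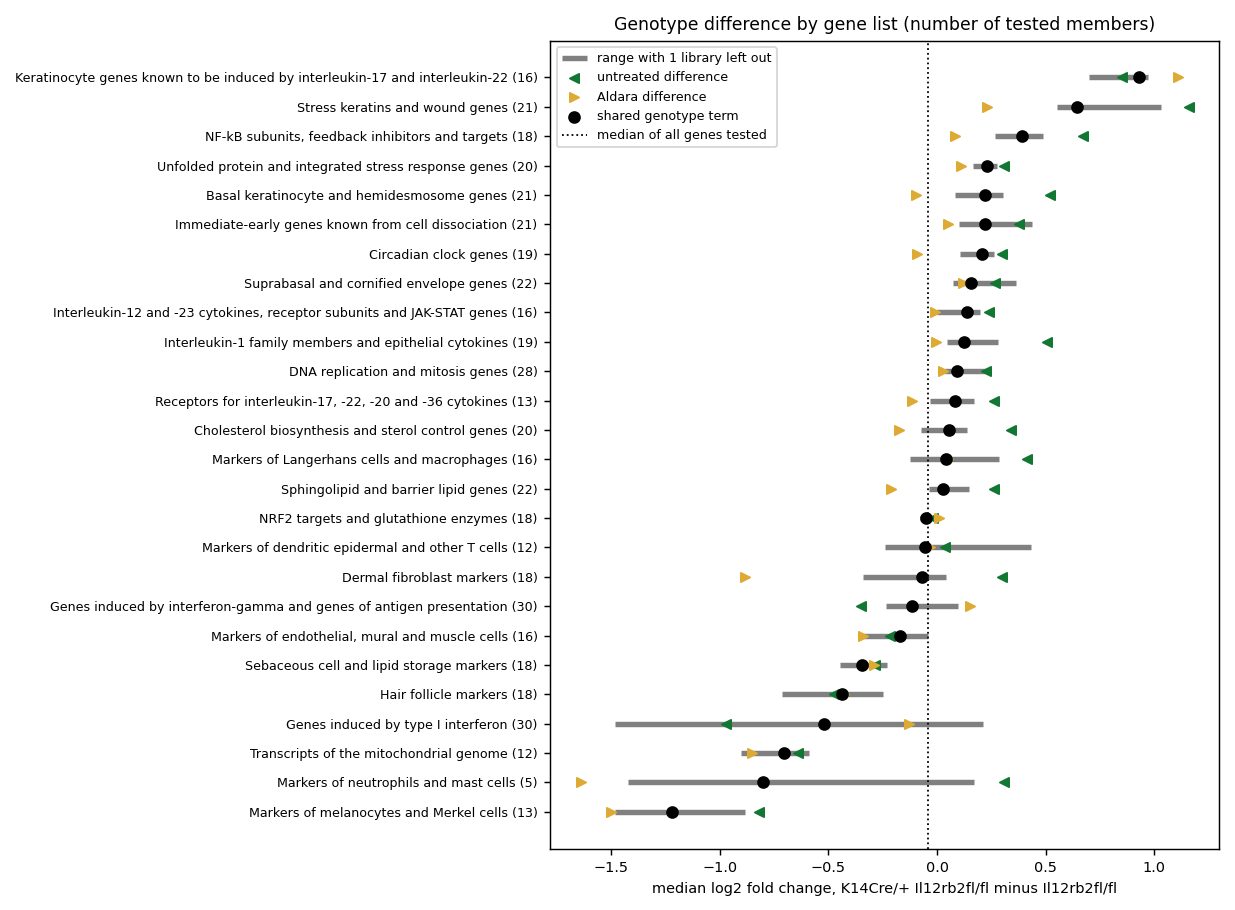
Median log2 fold change between genotypes (horizontal axis, Cre minus floxed) of each of 26 gene lists, with the number of tested members in brackets. Black points are the shared genotype term, grey bars its range with 1 library left out, green and yellow triangles the untreated and Aldara differences, and the dotted line the median of all genes. Genes known to respond to interleukin-17 and interleukin-22 stand highest at 0.93 and melanocyte and Merkel cell markers lowest at -1.22, and the bar of type I interferon genes crosses 0.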

How the data were processed

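RNA of FACS-sorted keratinocytes was made into Smart-seq2 libraries, which do not mark strand, and read as single ends of 100 bases, per the labels' protocols. The deposited values are raw read counts per gene that the authors did not normalize. Reads were processed with STAR and with featureCounts of Subread on build GRCm38, per the submitters' processing notes. Versions, strand setting and the handling of multi-mapping reads were not given in the sources used here, which leaves near-identical, overlapping and antisense genes uncertain.

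Here genes were filtered with filterByExpr (minimum count 10), scaled by TMM and tested with edgeR 4.0.16 in R 4.3.3 by a quasi-likelihood F test, with genotype and treatment as additive terms and no replicate block. P-values were adjusted by Benjamini-Hochberg over all genes tested, and a gene was called under 0.05. The interaction came from a fit with 1 coefficient per group. SE is the log2 fold change over the square root of F, and intervals are 95%. The code was tested on simulated data. Alternatives used limma 3.58.1, DESeq2 1.42.0, other scalings, filters and library sets, and 1 library left out at a time. Il12rb2 was also tested by exact permutation of log2 CPM (prior count 2). Coordinates come from GENCODE M21.

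Named genes were the 10 of smallest p in each direction at an average log2 CPM of at least 3, 8 genes of the receptor pathway and keratins, up to 3 per list, 5 for the interaction, and up to 10 without overlap in each direction. Predicted genes were left out, 1 item is not reported here, and some genes that the rule names are not described singly. The 26 lists held 528 symbols, of which 524 were found. Members and lists were chosen with earlier results of these data known. Genes called by an alternative only were named after their values were seen.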

Additional observations from a re-analysis of the deposited data

Results flagged for a closer look

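In the only group of 4 libraries, untreated K14Cre/+ Il12rb2fl/fl, 9 of 116 measures tested had 1 library far from the other 3. The limit flags about 1 in 20 by chance only for normally distributed values. The CPM values were not transformed and the measures are not independent, so the 9 are a description. Values are CPM. In replicate 2, Bst2 was at 38.8 beside 0.467 to 3.27, Rsad2 at 15.4 beside 0 to 2.23, Scd3 at 15.4 beside 4.43 to 5.83, and the endothelial receptor gene Tek at 13.5 beside 0.156 to 2.40. In replicate 4, S100a8 was at 12.2 beside 0.544 to 0.792, and the cornified envelope gene Cnfn at 14.2 beside 0.990 to 2.80. In replicate 3, Hsd17b7, a sterol enzyme gene, was at 93.5 beside 48.6 to 54.3, and Krt71, a hair follicle keratin, at 2.49 beside 0.0641 to 0.396. In replicate 1, Manf, a stress-induced secreted factor, was low at 36.8 beside 60.6 to 64.1. Replicate 2 is the library of lowest depth, and the part of depth in these values was not tested.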

How the results depend on the processing

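The genotype term over both treatments stayed at 0 called genes in each edgeR alternative, in limma voom, with a replicate block (514 genes at an unadjusted p under 0.05) and with each library left out. It was 9 with DESeq2, 6 with DESeq2 without independent filtering and 1 with voom and quality weights. The 9 were Hspb1, Ier3, Krt16, Atf4, Ndrg1 and Map2k3, higher, and mt-Nd1, mt-Cytb and mt-Nd4, lower. The 6 were Hspb1 (adjusted p = 0.0127), Tgfa, Ier3 and Sprr2g, higher, and the predicted genes Gm42995 and Gm47483, lower. DESeq2 gave an adjusted p to 803 genes with its own filter, and the causes of these differences were not tested. The interaction was 0 in the same settings and 6 with DESeq2 in either form (Vtcn1, Atp6v1g3, Ccdc80, Upk3a, Grk3 and Syne3). For Vtcn1, Atp6v1g3 and Upk3a the DESeq2 estimates were extreme, at -21.9, 19.3 and -24.4 on the log2 scale. There edgeR gave -8.35, 6.32 and -11.1, with unadjusted p of 0.0295, 0.0645 and 0.0223. With 1 library left out the interaction was 0 to 1, where Ccdc80 was called without floxed untreated replicate 3 (edgeR adjusted p = 0.0492).

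The Il12rb2 difference was -1.23 with untreated libraries only (exact permutation p = 0.2), -2.45 with Aldara libraries only (0.1), -1.43 without the libraries over 5% Gm10800 (0.117), -0.39 without those over 1% (1, where 0.333 is the smallest possible), and -0.90 without those over 5% and Cre Aldara replicate 1 (0.15). Over pairs of the same treatment and replicate number it was -1.85 (exact sign permutation p = 0.0625, where 0.0312 is the smallest possible). Those pairs leave out Cre untreated replicate 4, which has no floxed partner. With 1 library left out it ranged from -2.17 to -1.28. Deviations of 18 same-numbered pairs of libraries correlated at -0.17 to 0.30, 7 of them over 0.1. Their median was 0.022, beside -0.01 for the 45 other pairs. With 3 or 4 libraries per group these values do not settle whether the replicate numbers pair the libraries. The replicate block in edgeR changed no call.

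Of 3151 values of 109 named genes, 24 turned in sign. Stat4 was at 0.0136 with no filter, 1.21 with voom, 0.92 with quality weights, 1.21 with the replicate block, 0.31 in untreated libraries, 1.59 without the libraries over 5% Gm10800, 2.15 also without Cre Aldara replicate 1, 0.0867 with Gm10800 as covariate and -0.47 to 1.56 with 1 library left out. Jak2 ranged from -0.16 to 0.46 in the last setting. With Aldara libraries only, Stat5a was at 0.14, Il17ra at -0.13 and Plet1 at -0.15. With untreated libraries only, H2-Eb1 was at -0.0387, Fn1 at 0.0700 and Cdh5 at 0.0255. Without libraries over 1% Gm10800, H2-Eb1 was at -0.28, Epcam at -0.0426, Krt71 at 0.69 and Fn1 at 0.42, and Krt20 was at 0.37 with quality weights. That 1% limit removed 7 libraries, among them all Cre Aldara ones, so the interaction could not be fitted, the Il12rb2 test was left with 2 floxed and 2 Cre untreated libraries, and also removing Cre Aldara replicate 1 is the same set. For list medians, 27 of 810 values moved by more than the spread between libraries, and 11 values of named genes passed under DESeq2 or quality weights. The 5% sets, the Gm10800 covariate and DESeq2 without independent filtering were chosen after seeing the data.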

Other observations

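Lipid and stress programmes of the epidermis were tested in the same term, and no member passed the adjusted threshold of edgeR. Elovl6, which elongates saturated fatty acids, was at 517, 354 and 169 CPM in floxed and 53.2, 147, 235 and 57.2 CPM in Cre untreated libraries. After Aldara, Elovl6 was at 886, 643 and 288 CPM in floxed and 205, 391 and 185 CPM in Cre libraries. The groups overlapped in both treatments, and the Elovl6 term was -1.37 (SE 0.37, unadjusted p = 0.00214). Sptlc2, a subunit of the enzyme that starts sphingolipid synthesis, stood the other way at 0.57 (SE 0.17). Alox12b, a lipoxygenase of the skin barrier, was at 1.44 CPM or less in floxed libraries and at 11.9 and 9.10 CPM in Cre untreated replicates 3 and 4. Barrier lipid genes had a median of 0.03 with 11 of 22 above 0, and cholesterol synthesis genes of 0.06 with 13 of 20 above 0.

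Unfolded protein and integrated stress response genes had a median of 0.23, with 16 of 20 above 0 and the interval within 2-fold for 17. NRF2 targets and glutathione enzymes had a median of -0.05, and 3 of 18 had an unadjusted p under 0.05, all higher, beside 2.96% of all genes tested. Gsta4, a glutathione transferase of lipid peroxide detoxification, was at 4.57, 2.35 and 3.16 CPM in floxed and 7.71, 2.38, 12.4 and 35.8 CPM in Cre untreated libraries. After Aldara, Gsta4 was at 3.51, 13.7 and 3.89 CPM in floxed and 18.8, 13.99 and 25.6 CPM in Cre libraries, which were apart, with a Gsta4 term of 1.82 (SE 0.54). Circadian clock genes had a median of 0.21 with 12 of 19 above 0, and Bhlhe41 was the 1 clock gene at an unadjusted p under 0.05. Immediate-early genes known to be induced by cell dissociation had a median of 0.22 with 19 of 21 above 0, and 3 stood higher at an unadjusted p under 0.05 (2.96% of all genes), Ier3, Hspa8 and Hspa1a.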
